A study of Mus musculus with 7 samples.

Results

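Cd24a, Prom1, Clu, Sprr1a, Tspan8 and Tm4sf4 are genes known from ductular reactions and injured epithelium, and their transcripts were followed in cholangiocytes of mice fed a bile duct toxin, with and without diphtheria toxin. They were taken by name, with earlier results of these data known, and all 6 were found among the 24552 gene symbols of the count table. The cells were EpCAM-positive cholangiocytes, the epithelial cells lining the bile ducts, sorted from livers of mice of the genotype Foxp3GFPDTR. In this strain Foxp3-positive regulatory T cells carry the receptor for diphtheria toxin, so the toxin targets them, though their loss was not measured in these libraries. Every animal ate a diet with DDC, a compound that injures bile ducts, for 10 days. The control group received PBS (4 libraries) and the other group received diphtheria toxin at 1 µg/kg (DT, 3 libraries), each by intraperitoneal injection every 48 h. All libraries analysed here came from DDC-fed mice with the transgene, so the values describe injured ducts only, and effects of the toxin apart from regulatory T cells cannot be told apart from those of their loss. The age and sex of the mice, and whether a library came from 1 animal or from several, are not given in the labels, so the error in every test is the scatter of these 7 libraries, part of which may be technical.

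When bile ducts are injured, cholangiocytes multiply and form irregular strands and small ducts at the edge of the portal tract, which is called a ductular reaction. The cells in it keep duct markers and also make surface proteins of progenitor cells and proteins of wounded epithelium. Cd24a encodes a small, heavily glycosylated protein anchored to the outer face of the cell membrane by a lipid, which is used with Prom1 to sort progenitor-like duct cells. Prom1 encodes prominin 1 (CD133), a protein of membrane protrusions such as microvilli. Clu encodes clusterin, a secreted chaperone that binds misfolded proteins and marks regenerating cells in injured gut. Sprr1a encodes a small proline-rich protein that is cross-linked into the tough envelope of skin cells and appears in other tissues after injury. Tspan8 is a tetraspanin and Tm4sf4 belongs to the TM4SF family, and the products of both genes cross the membrane several times.

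Transcripts were counted from their 3′ ends, with 4805018 to 6285624 counts per library. Values are given as CPM, which is the count scaled to a common library total with TMM factors, and as log2 fold changes of DT minus PBS from the edgeR quasi-likelihood fit of 7688 tested genes. Counts of 0 were common in this table, but each of the 6 genes had counts in all 7 libraries, from 653 for Prom1 in PBS 1 to 113089 for Clu in DT 1. All 10 cholangiocyte markers on a fixed list had counts. The 8 B and plasma cell markers and 9 erythroid markers in the table were at 0 in every library, and 8 of 9 T and NK cell markers were. Other lists had counts in every library: 10 macrophage and monocyte markers summed to 872 to 1898 CPM in PBS and 1496 to 1603 CPM in DT, most of it Cd14 outside PBS 4, with Adgre1 at 0, and 10 stellate and fibroblast markers to 675 to 2274 CPM and 1132 to 2078 CPM, most of it Rgs5, with Lrat, Pdgfrb and Des at 0. The libraries also differed in sex-linked reads. Y-linked genes had 2048 counts in PBS 1, 0 in PBS 2, PBS 3 and PBS 4, and 1681, 1045 and 880 in DT 1 to DT 3, and Xist had 630, 12089, 17627 and 10420 counts in PBS and 453, 0 and 0 in DT. PBS 1 and DT 1 thus held both kinds of read, and they had the fewest genes with counts (5967 and 5419, against 6164 to 8361 in the others). With Y-linked reads, present or absent, as a covariate the edgeR log2 fold change was 0.61 for Clu (0.40 without the covariate), 0.87 for Sprr1a (0.61), 0.34 for Cd24a (0.46), 1.51 for Prom1 (0.33), 0.14 for Tspan8 (0.12) and -0.11 for Tm4sf4 (-0.23), and 0 of the 6 passed. Since every DT library had such reads and PBS 1 was the single control with them, this fit separates the covariate from the group by PBS 1 alone. Beyond PBS 1, a difference that goes with the sex-linked reads cannot be told apart from one that goes with the toxin.

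Clu, Sprr1a and Cd24a had higher CPM in each DT library than in any PBS library, while Prom1, Tspan8 and Tm4sf4 overlapped between the groups. The mean of the DT libraries was 1.53 times that of the PBS libraries for Sprr1a, 1.38 times for Cd24a and 1.32 times for Clu. By the edgeR test 0 of the 6 genes passed an adjusted p of 0.05, where 0% of the tested genes passed as higher and 0.0390% as lower. At an unadjusted edgeR p below 0.05, 2 of the 6 (Clu and Sprr1a) were higher, against 1.39% of all tested genes, and 0 of the 6 were lower, against 2.11%. The 3 genes without overlap stand beside 3.73% of all 7688 tested genes that were likewise higher in DT without overlap, and 7.37% of the 733 well-read genes, those at 8 or more in average log2 CPM. The corresponding shares for genes lower in DT without overlap were 2.58% and 5.59%, and 0 of the 6 were among them. The 6 genes were chosen with earlier results of these data known, so these shares are a description and not a test. The median log2 fold change of the 6 genes was 0.36, and that of the 733 well-read genes was 0.03. Together the 6 genes took 1.81% to 2.05% of the counts of a PBS library and 2.24% to 2.70% of those of a DT library, most of it Clu.

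**Figure D1:**
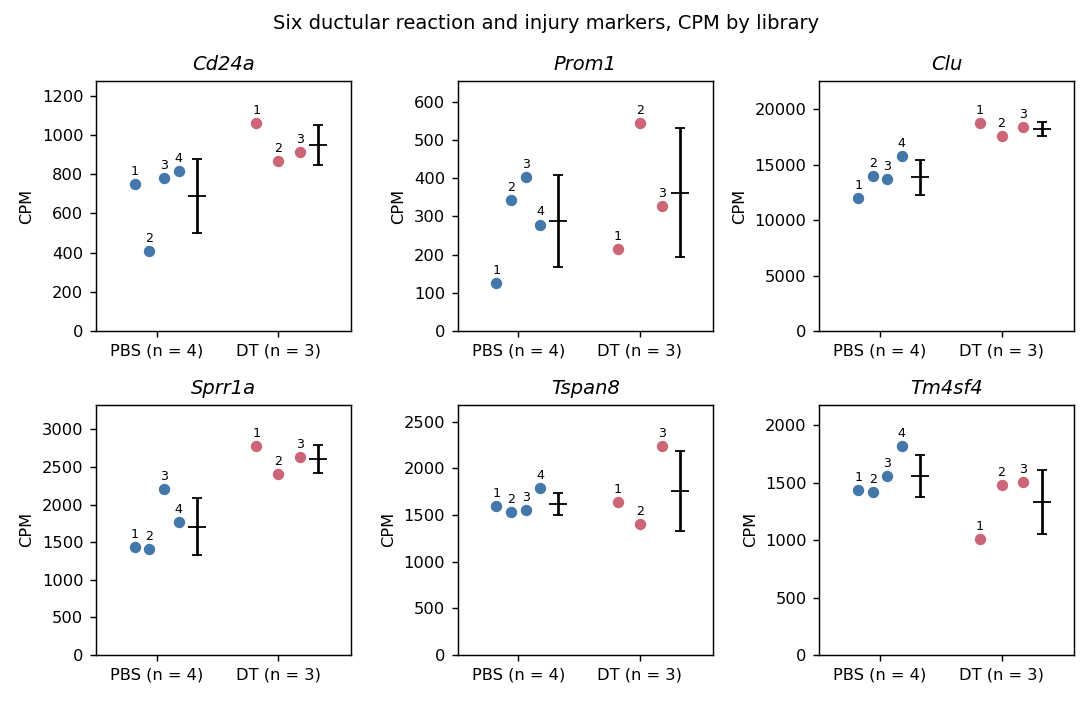
CPM of the 6 genes in each library (vertical axes start at 0), with PBS libraries in blue and DT libraries in red, replicate numbers above the points, and the mean ± SD of each group as a black bar. All 3 DT points lie above all 4 PBS points for Cd24a, Clu and Sprr1a, and the groups overlap for Prom1, Tspan8 and Tm4sf4.

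Clu was by far the most counted of the 6, with 1.25% to 1.99% of all counts of a library, and ranked 2 among the 7688 tested genes by mean CPM. It stood at 11971, 13966, 13723 and 15799 CPM in PBS 1 to PBS 4 and at 18787, 17548 and 18381 CPM in DT 1 to DT 3. The lowest DT library was 11.1% above the highest PBS library, PBS 4, and the DT libraries lay close together. Their coefficient of variation was 3.46%, against 11.3% in PBS. The group means were 13865 ± 1566 CPM (SD, n = 4) and 18238 ± 632 CPM (SD, n = 3). This gave a log2 fold change of 0.40 (SE 0.13, 95% interval 0.13 to 0.66, edgeR unadjusted p = 0.00421, adjusted p = 1.00). With each library removed in turn, the estimate for Clu stayed between 0.32 (without PBS 1) and 0.46 (without PBS 4), and the fit with the Y-linked covariate moved it further, to 0.61 (SE 0.19, edgeR adjusted p = 0.294). DESeq2 gave it an adjusted p of 0.0617, and limma-voom with sample weights an adjusted p of 0.922, with 0.41 as its log2 fold change and an SE of 0.63. Hepatocytes make clusterin too. The 10 hepatocyte markers on the fixed list summed to 2245 to 3809 CPM in PBS and 3658 to 5322 CPM in DT, with Cps1 at 0 in all libraries. Alb, the albumin gene, was at 695, 973, 1142 and 1277 CPM in PBS 1 to PBS 4 and at 2062, 1398 and 1698 CPM in DT 1 to DT 3, so like Clu it was higher in every DT library than in any PBS library, with DT 1 the highest. Of the 9 hepatocyte markers with counts, 2 separated the groups, Alb and Serpina1b, both chosen after their values were seen, and the others overlapped. Both were higher in DT, beside 3.73% of all tested genes and 7.37% of the well-read genes. Serpina1b had 0 counts in PBS 1 and PBS 4. Gc, the most abundant of the list, was at 770, 1564, 1156 and 1851 CPM in PBS 1 to PBS 4. In DT 1 to DT 3 Gc was at 784, 2140.5 and 2548 CPM, with DT 1 the lowest of its group, unlike Clu and Alb. The part of hepatocyte RNA in the Clu values was not tested, and in bulk libraries a change in the mix of cells and a change in RNA per cell cannot be told apart.

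Sprr1a had the largest log2 fold change of the 6 genes in the edgeR fit. Its CPM was 1429, 1409.9, 2212 and 1772 in PBS 1 to PBS 4 and 2773, 2407 and 2630.1 in DT 1 to DT 3. PBS 3 came nearest to the DT group, and the lowest DT library, DT 2, was 8.83% above it. The PBS mean was 1706 ± 376 CPM (SD, n = 4) and the DT mean 2603.5 ± 184 CPM (SD, n = 3). In the edgeR fit the log2 fold change was 0.61 (SE 0.23, 95% interval 0.15 to 1.07, unadjusted p = 0.0105, adjusted p = 1.00). It ran from 0.52 (without PBS 1) to 0.75 (without PBS 3) with single libraries removed. Of the 6 genes it was the one that passed by limma-voom with sample weights (adjusted p = 0.00955), a test that called 0.0780% of tested genes higher. DESeq2, which called 0.610% of genes higher and 1.77% lower, called 0 of the 6 (adjusted p = 0.0873 for Sprr1a), and over all 16 alternatives the adjusted p of Sprr1a ran from 0.00955 to 1.00.

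Sprr1a was nearly alone in its family in counts. Of 16 Sprr genes in the table, 13 had 0 counts in every library. By counting error, a 0 in a single library is compatible with as many as 3 expected counts. How reads that match several similar genes were counted is not given in the labels, so these zeros do not show that the transcripts were absent. The others with counts were Sprr2g, with 372 counts in DT 1 alone, and Sprr2a3, with 1 count in PBS 4. Both were chosen after their values were seen. Of 22 further genes of the small proline-rich and cornified envelope list, 3 passed the filter on low counts and 0 passed the test. Ivl, which encodes involucrin, another envelope protein, had 167, 88.5, 71.7 and 192 CPM in PBS 1 to PBS 4 and 458, 264 and 321 CPM in DT 1 to DT 3. Its groups, like those of Sprr1a, did not overlap, and its log2 fold change was 1.42 (SE 0.57, edgeR adjusted p = 1.00). The desmosome and envelope genes Ppl and Dsp overlapped between the groups, with log2 fold changes of -0.32 and -0.23. Tgm1, the enzyme that cross-links the envelope in skin, had 0 counts in all 7 libraries.

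The stretch before the start of Sprr1a is shown because, of the 3 genes without overlap, it is the one with an entry in the RefSeq table of promoter sequences. Those of Prom1 and Tm4sf4 stand beside it for comparison. Each run gives the 250 bases before the start, 5′ to 3′ in the direction of the gene, on RefSeq build GRCm38.p6, which is not the mm9 build of the counts. Capitals mark TGAGTCA or its reverse complement TGACTCA, the sequence bound by AP-1, a family of injury-responsive transcription factors. The windows are chr3:92485882-92486131 (minus strand) for Sprr1a, chr5:44101737-44101986 (minus strand) for the first of both listed starts of Prom1, and chr3:57425160-57425409 (plus strand) for Tm4sf4.
Sprr1a: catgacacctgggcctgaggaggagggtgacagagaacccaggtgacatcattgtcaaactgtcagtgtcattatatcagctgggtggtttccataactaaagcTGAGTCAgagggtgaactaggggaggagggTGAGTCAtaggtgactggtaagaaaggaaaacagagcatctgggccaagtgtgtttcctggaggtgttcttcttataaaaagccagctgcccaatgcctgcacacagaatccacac
Prom1: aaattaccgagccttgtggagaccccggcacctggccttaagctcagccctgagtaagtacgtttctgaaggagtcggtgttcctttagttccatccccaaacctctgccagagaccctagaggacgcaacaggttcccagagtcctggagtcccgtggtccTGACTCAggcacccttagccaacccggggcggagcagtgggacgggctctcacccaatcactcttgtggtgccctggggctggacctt
Tm4sf4: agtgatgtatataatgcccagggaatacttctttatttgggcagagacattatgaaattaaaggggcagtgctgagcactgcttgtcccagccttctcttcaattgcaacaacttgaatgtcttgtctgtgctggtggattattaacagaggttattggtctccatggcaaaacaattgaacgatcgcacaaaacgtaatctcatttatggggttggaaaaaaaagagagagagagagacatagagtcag
In Sprr1a the motif was found at 2 places, which begin at -146 and -116 relative to the start. It was found once before the first Prom1 start, beginning at -88, and in none of the windows of Tm4sf4, Tspan8 and the other Prom1 start. Searched on both strands, 4.46% of the 32851 windows of this length in the RefSeq table held it at least once and 0.167% at least 2 times. A match of letters is not a measured binding site. Cd24a and Clu have no entry in the table.

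Cd24a was at 749, 408, 779.7 and 818 CPM in PBS 1 to PBS 4 and at 1062, 866 and 912 CPM in DT 1 to DT 3. PBS 2 was far below the other PBS libraries, and the lowest DT library was 5.90% above the highest PBS library. The means were 689 ± 189 CPM (SD, n = 4) and 947 ± 102 CPM (SD, n = 3), with a log2 fold change of 0.46 (SE 0.31, 95% interval -0.17 to 1.09, edgeR adjusted p = 1.00). Without PBS 2 the log2 fold change was 0.28, the lowest of all alternatives. Cd24a is also made by B cells, neutrophils and young red cells. B and plasma cell and erythroid markers were at 0 in every library, in a table where 0 is common. The 10 neutrophil markers, of which 5 were at 0 throughout, summed to 0 to 386 CPM in PBS and 36.7 to 191 CPM in DT, with S100a8 the most abundant, and their part was not tested. Of the partner list of CD24, Siglecg and Selp, which encode receptors for CD24 on immune and endothelial cells, had 0 counts in all libraries. Fyn, a kinase gene, and Hmgb1, an alarmin gene, had log2 fold changes of -2.06 and -0.34 with SEs of 3.12 and 1.68, so the libraries did not fix their direction.

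Prom1 was the least counted and the most variable of the 6. Its CPM was 127, 343, 404 and 279 in PBS 1 to PBS 4 and 214, 545 and 327 in DT 1 to DT 3. In each group the lowest value was in replicate 1, the library that held both Xist and Y-linked reads. The highest PBS value was 3.18 times the lowest, and the highest DT value was 2.55 times the lowest. Means of 288 ± 119 CPM (SD, n = 4) and 362 ± 168 CPM (SD, n = 3) gave a log2 fold change of 0.33 (SE 0.48, 95% interval -0.64 to 1.30, edgeR adjusted p = 1.00). In PBS this spread was close to that of genes read at the same level, and in DT it was wider. The coefficient of variation of Prom1 was 41.3% in PBS and 46.5% in DT, and the median of the 480 tested genes within 0.5 log2 units of its level was 38.1% and 36.5%. Leaving out DT 2 turned the log2 fold change of Prom1 to -0.093, and leaving out PBS 1 made it 0.069. The fit with the Y-linked covariate gave 1.51 (SE 0.75, edgeR adjusted p = 0.697), and without PBS 1 and DT 1 together it was 0.35. In the GENCODE annotation of GRCm38 an antisense gene, Gm16401, overlaps Prom1, and another, 4930422I22Rik, overlaps Tspan8, while Gm42716 overlaps Prom1 on the same strand. These 3 genes are not in the count table. Reads of the antisense genes cannot be told apart from those of Prom1 and Tspan8 without a stated strand setting, and reads of Gm42716 where it overlaps Prom1 cannot be under any setting. Prom2, the other prominin gene, had 0 counts in all 7 libraries. Ezr, which encodes the microvillus linker ezrin, had a PBS mean of 666 ± 112 CPM and a DT mean of 741 ± 38.9 CPM (log2 fold change 0.15, SE 0.32). Slc9a3r1, the gene of a scaffold protein that binds ezrin, had the smallest p of this list, with means of 129 ± 80.5 CPM and 262 ± 146 CPM (1.02, SE 0.70). Podxl, which encodes the sialomucin podocalyxin, had 71.7 ± 45.8 CPM and 83.4 ± 78.7 CPM (0.22, SE 1.72). The groups overlapped for all 3 genes, and each had 1.00 as its edgeR adjusted p. Of the 6 tested genes on the list of microvillus and cilium membrane genes, 0 passed the test and 5 had positive values.

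Tspan8 and Tm4sf4 were read at similar depth and did not separate the groups. Tspan8 was at 1596, 1537, 1555 and 1794 CPM in PBS 1 to PBS 4 and 1637, 1407 and 2237 CPM in DT 1 to DT 3. The PBS libraries were tight, with a coefficient of variation of 7.32%, while the DT libraries held both the lowest and the highest value of the 7. The means were 1620.3 ± 119 CPM (SD, n = 4) and 1760.4 ± 428 CPM (SD, n = 3), with a log2 fold change of 0.12 (SE 0.24, 95% interval -0.37 to 0.61, edgeR adjusted p = 1.00). Without DT 3 the sign turned, to -0.097, and without DT 2 the value was 0.26. Of 30 other tetraspanins on the fixed list 14 were tested, 9 with positive and 5 with negative values, and 0 passed by edgeR. DESeq2 called 1 lower, Tspan33 (adjusted p = 0.0498), chosen after its values were seen, which had 206, 202, 299 and 0 counts in PBS and 0 in each DT library. Of the 14, 6 had counts in every library, and 0 of the 14 separated the groups, beside 3.73% (higher) and 2.58% (lower) of all tested genes. Cd9 went from a PBS mean of 608 ± 185 CPM to a DT mean of 378 ± 96.5 CPM (log2 fold change -0.68, SE 0.38), with PBS 3 (370.4 CPM) among the DT values. For Cd81 the means were 268 ± 86.3 and 408.5 ± 142 CPM (0.61, SE 0.46), and for Cd63 they were 262 ± 82.6 and 227 ± 115 CPM (-0.21, SE 0.54). All 3 had 1.00 as their edgeR adjusted p.

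Tm4sf4 was the only one of the 6 genes with a negative value. Its CPM was 1439.9, 1419.8, 1555 and 1816 in PBS 1 to PBS 4 and 1009, 1480.0 and 1503 in DT 1 to DT 3. DT 1 was the lowest of all 7 libraries, while DT 2 and DT 3 lay within the range of the PBS group. Means of 1558 ± 182 CPM (SD, n = 4) and 1330.5 ± 279 CPM (SD, n = 3) gave a log2 fold change of -0.23 (SE 0.26, 95% interval -0.74 to 0.29, edgeR adjusted p = 1.00), which was -0.08 without DT 1. Its relative Tm4sf1 had means of 911.5 ± 277 CPM (PBS) and 819 ± 334 CPM (DT), with -0.15 as its log2 fold change (SE 0.32, edgeR adjusted p = 1.00). Among the other family members, Tm4sf5 and Tm4sf19 had 0 counts in all libraries and Tm4sf20 had 313 counts in PBS 2 alone.

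**Figure D2:**
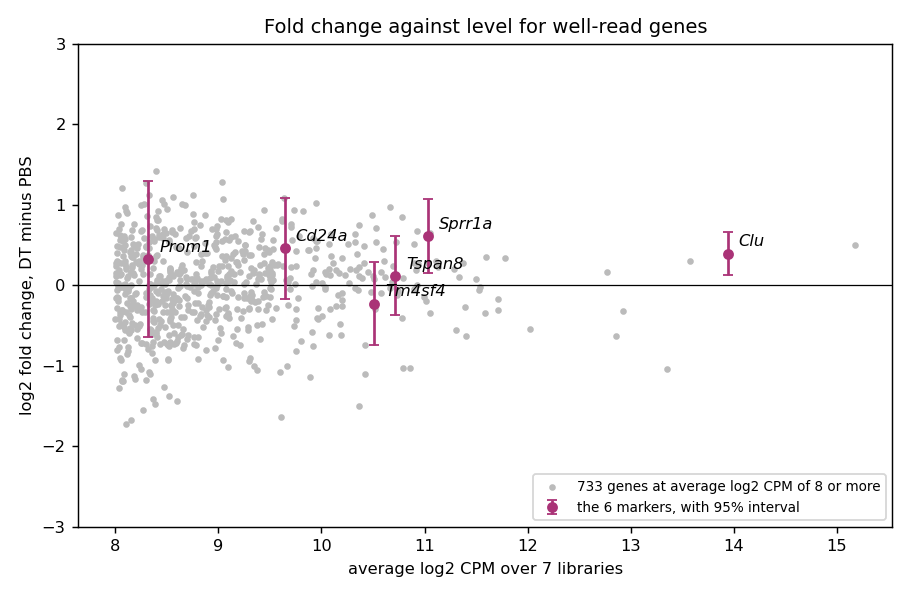
Log2 fold change of DT minus PBS against average log2 CPM for the 733 genes at 8 or more (grey; 1 gene beyond the vertical axis is not drawn), with the 6 genes in purple and their 95% intervals. The intervals of Clu and Sprr1a, not adjusted for the number of genes, lie above 0, and those of the other four cross it.

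Ratios between the genes within a library do not depend on how libraries are scaled. They were computed for all 15 pairs, and the 3 described were chosen after their values were seen. The ratio separated the groups in 3 pairs, those of Cd24a, Clu and Sprr1a with Tm4sf4, the gene with the negative log2 fold change, and the other 12 overlapped. These pairs set the 3 genes already without overlap against Tm4sf4, so they are not a separate result. The share of separated pairs among other genes was not computed. The count of Sprr1a divided by that of Tm4sf4 was 0.993, 0.993, 1.42 and 0.976 in PBS 1 to PBS 4 and 2.75, 1.63 and 1.75 in DT 1 to DT 3. That of Clu divided by Tm4sf4 was 8.31, 9.84, 8.83 and 8.70 in PBS and 18.6, 11.9 and 12.2 in DT. For both ratios every DT library lay above every PBS library, with DT 1 the highest. Clu divided by Sprr1a was 8.38, 9.91, 6.20 and 8.92 in PBS and 6.78, 7.29 and 6.99 in DT, and the DT values lay within the PBS range. The pairs with the smallest distance over the 7 libraries, the root mean square difference of their log2 values after subtracting each gene's own mean, were Clu with Sprr1a (0.22), Clu with Tspan8 (0.24) and Cd24a with Sprr1a (0.26). Genes that vary little are close by this measure whether or not they vary together. The spread around the gene's own mean was 0.23 for Clu, 0.20 for Tspan8, 0.38 for Sprr1a and 0.41 for Cd24a, so Clu and Tspan8 differed by more than either gene's own spread. Cd24a and Prom1 were farthest apart (0.78).

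**Figure D3:**
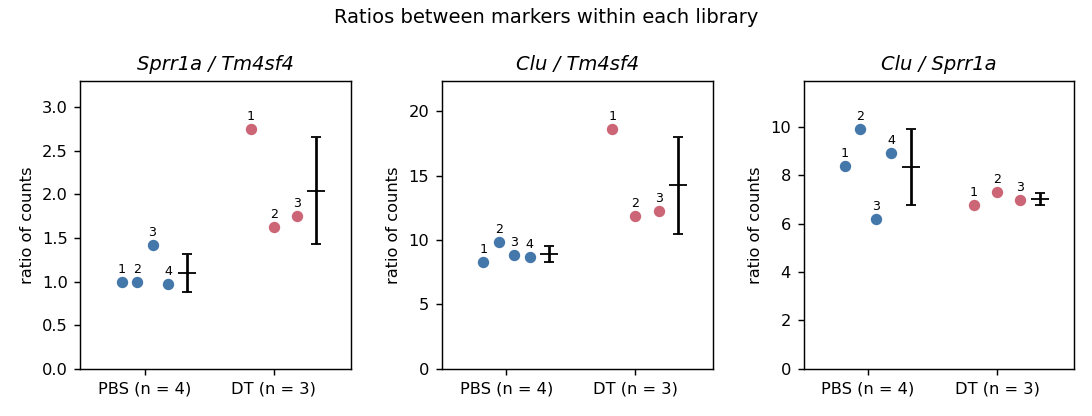
Ratio of counts between pairs of genes in each library (vertical axes start at 0), with replicate numbers above the points and the mean ± SD of each group as a black bar. The ratios of Sprr1a and of Clu to Tm4sf4 have every DT point above every PBS point, and that of Clu to Sprr1a overlaps.

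The same distance was used to name, from the well-read genes, the 3 whose pattern over the 7 libraries was most like that of each gene. For Clu these were Cp (0.074), Slc3a2 (0.11) and Rpl13a (0.14), where the median over 732 genes was 0.53. Cp encodes ceruloplasmin, a secreted copper-binding protein also made by hepatocytes. For Sprr1a they were Hnrnpa0 (0.12), Lsr (0.15) and Rpl37a (0.18), with a median of 0.60, and for Cd24a they were Hnrnpm (0.14), Gnas (0.20) and Chka (0.21), with a median of 0.64. Rps13 (0.21), Arf4 (0.23) and Kifc3 (0.27) were nearest to Prom1, with a median of 0.77. Nearest to Tspan8 were Tagln2 (0.090), S100a11 (0.11) and Sub1 (0.14), with a median of 0.53. Nearest to Tm4sf4 were Jun (0.12), which encodes an AP-1 subunit, Lrrfip1 (0.14) and Tmbim6 (0.15), with a median of 0.53. These are the closest of many genes over few libraries and are given as a description.

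Other genes of the ductular reaction were split in sign. Of 32 biliary progenitor and ductular reaction genes beside the 6, 30 were tested, 14 with positive and 16 with negative values, and 0 passed. Their median log2 fold change was -0.08. Sox9, a transcription factor of duct identity, had the smallest p among those with counts in every library and was at 969, 2117 and 2621 CPM in DT 1 to DT 3, against 1045 to 1313 CPM in PBS. DT 1 thus lay below all PBS libraries and DT 2 and DT 3 above them. Vcam1, an adhesion molecule gene, had means of 4796 ± 1601 CPM (PBS) and 3287 ± 395 CPM (DT), a log2 fold change of -0.55 with an SE of 0.21. Sox4, a transcription factor gene of immature ducts, was at 1656 ± 562 and 989 ± 388 CPM (-0.74, SE 0.29). The single gene of this list without overlap was Cdh1, the epithelial cadherin gene, chosen after its values were seen, with means of 3385 ± 277 CPM (PBS) and 2669 ± 209 CPM (DT). This 1 of 30 tested genes stands beside 2.58% of all tested genes and 5.59% of the well-read genes that were lower without overlap. The edgeR adjusted p of Sox9, Vcam1, Sox4 and Cdh1 was 1.00 each.

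In the list of injured and regenerating epithelium genes, 25 of 33 were tested, with 14 positive and 11 negative values, a median log2 fold change of 0.04 and 0 past the edgeR test. DESeq2 called 4 of them, Anxa5 (adjusted p = 0.00218) and Tgm2 (0.0421) higher and Ctgf (0.00111) and Emp1 (0.0340) lower, where it called 0.610% of genes higher and 1.77% lower. Emp1, chosen after its values were seen, had 674, 120, 0 and 149 counts in PBS and 0, 1 and 0 in DT. Genes without overlap went both ways, with 3 of 25 higher and 2 lower in DT, beside 3.73% and 2.58% of all tested genes and 7.37% and 5.59% of the well-read genes. The higher ones were Lcn2, an iron-siderophore binding protein of injured epithelium, Anxa5, a phospholipid-binding annexin, and Tgm2, a transglutaminase that cross-links proteins, as Tgm1 does in skin. Lcn2 had 795, 1531, 1221 and 1039 CPM in PBS 1 to PBS 4 and 2712, 2418 and 1647 CPM in DT 1 to DT 3. Tgm2, chosen after its values were seen, went from 609.5 ± 161 CPM to 1167 ± 272 CPM (log2 fold change 0.94, SE 0.30, adjusted p = 1.00 by edgeR). The lower ones were Ctgf, a YAP target gene of wounded cells, and Msln, the mesothelin gene, chosen after its values were seen. Ctgf had 1559, 1775, 2331 and 3378 CPM in PBS and 949, 1020.5 and 1358 CPM in DT. Msln had 318, 347, 673 and 420 counts in PBS and 0, 176 and 0 in DT.

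**Figure D4:**
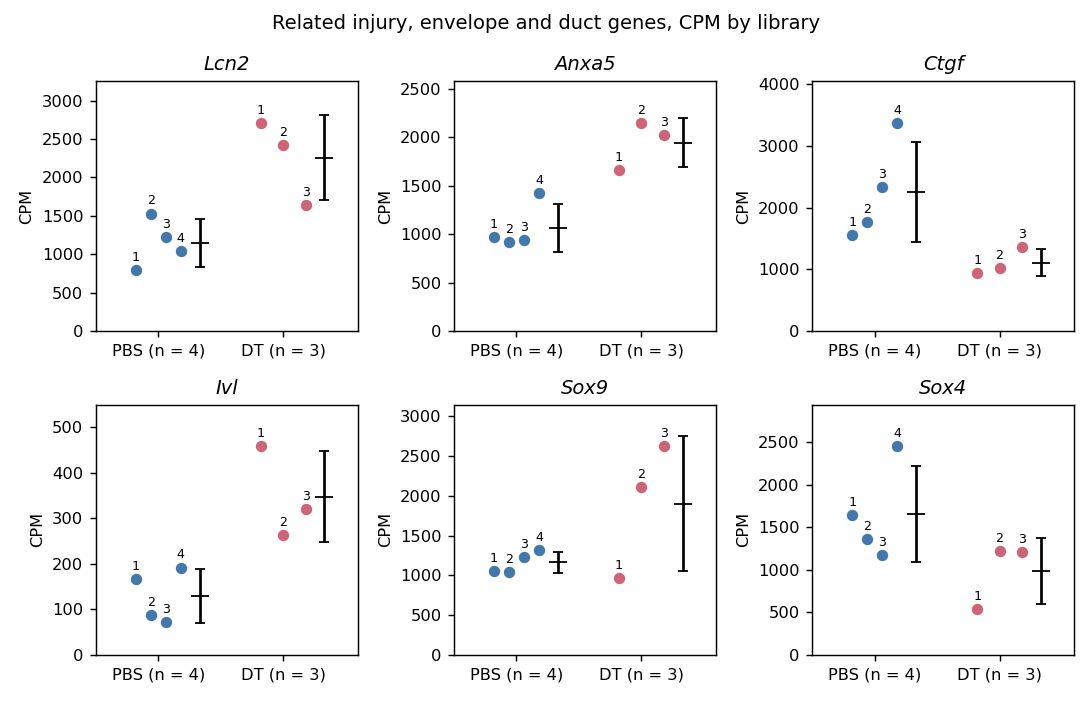
CPM in each library of 6 genes from the related lists (vertical axes start at 0), with replicate numbers above the points and the mean ± SD of each group as a black bar. The DT points of Lcn2, Anxa5 and Ivl lie above, and those of Ctgf below, every PBS point, while Sox9 and Sox4 overlap.

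Clusterin can bind receptors of the lipoprotein receptor family, and these gave few reads. Lrp2, Lrp8 and Trem2 had 0 counts in all 7 libraries, and Vldlr had means of 120.1 ± 58.0 CPM (PBS) and 87.6 ± 72.4 CPM (DT), a log2 fold change of -0.46 with an SE of 1.21. Tgfbr1, a receptor gene of TGF-beta, had 86.5 ± 26.1 CPM and 70.0 ± 16.0 CPM (-0.31, SE 1.62). Apoe, an apolipoprotein gene, had 1035 ± 850 CPM and 1477 ± 235.5 CPM (0.51, SE 0.49), with PBS 4 the highest of all libraries. Lrp1, chosen after its values were seen, had 277, 1036, 91 and 123 counts in PBS and 0 in each DT library. It did not pass by edgeR (adjusted p = 1.00) but did by DESeq2 (adjusted p = 4.85e-05), and 21.1% of all values of tested genes in the table were 0. Of 5 tested genes on this list 0 passed by edgeR.

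**Figure D5:**
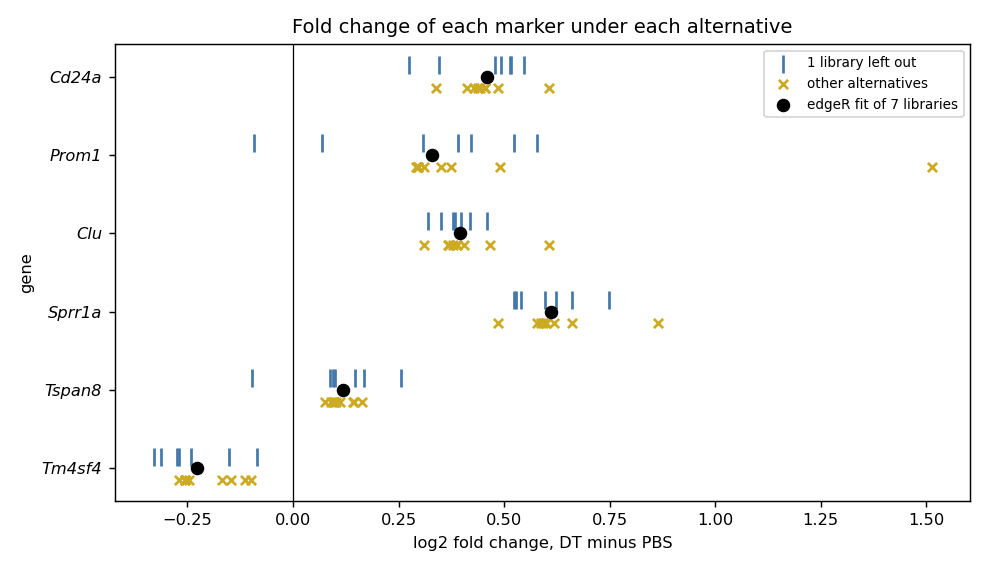
Log2 fold change of DT minus PBS of each of the 6 genes under the edgeR fit of 7 libraries (black), with 1 library left out (blue bars) and under the other alternatives (yellow crosses). The values of Cd24a, Clu and Sprr1a stay above 0 and those of Tm4sf4 below it, while Prom1 and Tspan8 each cross 0 once.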

How the data were processed

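RNA of sorted cholangiocytes was made into 7 libraries with a kit that reads transcript 3′ ends, per the labels' protocols. The authors deposited raw counts of reads for each gene symbol, without normalization. The submitters' processing notes name build mm9. How reads were aligned and counted, the annotation, the strand setting and any molecular identifiers are not given in the labels. Sample titles gave the groups and replicate numbers.

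With edgeR 4.0.16 in R 4.3.3, filterByExpr kept 7688 genes, which held 97.5% of counts. DT and PBS were compared by the edgeR quasi-likelihood F test, two-sided, with robust dispersion, TMM factors and Benjamini-Hochberg adjustment over all tested genes at 0.05. SEs were derived from fold change and F. The floor of 3 counts for a 0 in a single library covers counting error only, since PCR copies of reads are not independent molecules. The scripts were tested on simulated data. The 6 genes, the lists and the tests were chosen with earlier results of these data known. Named genes were the 6, the 3 nearest in pattern to each (log2(CPM + 1)), and in each list the 3 with the smallest p among those with counts in every library. The alternatives were RLE factors, upper quartile factors, no filter, a filter at 8 in average log2 CPM, the replicate block, DESeq2 1.42.0, limma-voom (limma 3.58.1), a Y-linked covariate and leaving out each library. Leaving out PBS 1 and DT 1 together was added after seeing the data. Promoter sequences came from a RefSeq table matched by symbol (4 of 6 genes). Figures used matplotlib 3.10.9.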

Additional observations from a re-analysis of the deposited data

Results flagged for a closer look

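In 27 genes the 4 PBS libraries were checked for one that lies far from the other three, and 3 stood apart, where chance gives about 1.35. For Cd24a, PBS 2 (408 CPM) was separated from the nearest PBS library by 0.832 of the range of the group. For Anxa5 it was PBS 4, the highest of the group, with 0.892 of the range. For Apoe, which encodes an apolipoprotein and was named from the list of clusterin partners, it was PBS 4 with 2306 CPM and 0.904 of the range, against 529 to 699.7 CPM in the other PBS libraries. In the same library several macrophage and neutrophil markers also stood above the rest of the group. Examples, picked by their high values in PBS 4, were Lyz2 with 1522 counts, C1qc 898, C1qa 742, Cd68 592 and S100a8 1124. These had 0 to 8 counts in each of the other PBS libraries. Other markers of the same lists did not follow. Cd14, the most abundant macrophage and monocyte marker, was at 873.5 CPM in PBS 4, below PBS 2 (1472.8 CPM) and PBS 3 (1448.9 CPM). Camp had 0 counts in PBS 4 and 121 in PBS 1, and Adgre1 had 0 in every library. The part of macrophages and neutrophils in the Apoe, Anxa5 and other values of PBS 4 was not tested.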

How the results depend on the processing

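Over 16 alternatives the log2 fold changes of Cd24a, Clu and Sprr1a kept a positive sign and that of Tm4sf4 a negative one. The sign of Prom1 turned without DT 2 (-0.093) and that of Tspan8 without DT 3 (-0.097). With single libraries left out, Prom1 ran from -0.093 to 0.58 and Tspan8 from -0.097 to 0.26. Sprr1a passed by limma-voom with sample weights (log2 fold change 0.62), the 1 gene of the 6 to do so in any alternative. The 3 genes without overlap were also 3 with RLE and with upper quartile factors. Over all genes, against 0 higher and 3 lower, the counts were 1 and 7 with no filter, 0 and 5 with the filter at 8, 47 and 136 by DESeq2, 6 and 6 by limma-voom, and 23 higher with the Y-linked covariate. With single libraries left out, 0 to 1 genes were higher and 1 to 4 lower. With the replicate block there were 6 higher and 6 lower, and 0 of the 6 genes passed (log2 fold change of Clu 0.47, adjusted p = 0.181). The replicate numbers are not said to pair animals, so they were not taken as pairs in the main fit. Same-numbered libraries deviated from their group means with correlations of -0.0490 to 0.0259, 0 of 3 over 0.1, and 1 of 3 DT libraries was closest to its own number. Beyond the smaller number of libraries or of genes in some fits, the cause was not tested. Values of 0 made up 21.1% of the table of tested genes. They did not simply follow the total count, since DT 1 had 5683824 counts and 5419 genes with counts, and PBS 2 had 5175040 and 6952.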
